A study of Arabidopsis thaliana with 12 samples.

Results

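The genes described here are 5 nuclear genes of Arabidopsis thaliana that encode proteins of the plastid ribosome. They are the small subunit genes PRPS6 (AT1G64510) and PRPS10 (AT3G13120) and the large subunit genes PRPL5 (AT4G01310), PRPL17 (AT3G54210) and PRPL34 (AT1G29070). They were chosen by gene identifier from the 691 genes that had an array probe listing no other gene, and each was read from 1 such probe. The array carried 3439 probes in all. Transcript levels were measured in total RNA of wild type (WT) and of prpl11, a mutant that lacks plastid ribosomal protein PRPL11, both in ecotype Columbia 0, with 6 arrays of each genotype numbered 1 to 6. The labels gave no tissue, age or growth conditions, no allele, and nothing on whether replicates came from separate plants, and the p-values below therefore cover only array-to-array spread, part of which may be technical.

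The plastid ribosome is of bacterial type and makes the proteins encoded in the plastid genome, among them core subunits of the photosystems. Its proteins come from 2 genomes: some are encoded in the plastid, while most are encoded in the nucleus, made in the cytosol and imported. The protein missing in prpl11 is the counterpart of bacterial L11, which sits at the base of the stalk of the large subunit where translation factors bind. The comparison asked whether transcripts of nuclear genes for other proteins of the same ribosome differed between the mutant and WT, and whether small and large subunit genes moved alike.

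Deposited intensities, in arbitrary units, summed to 3597 to 3678 per array, so array totals were nearly equal. The array medians of log2 intensity before normalization still ran from -0.819 to -0.711. Neighbouring replicate numbers (1 and 2, 3 and 4, 5 and 6) gave more similar values over all probes, though not for each of the 5 genes, and each such group of 4 arrays, both genotypes together, is called a set. The correlation of such neighbours, estimated by limma over all probes, was 0.673. PRPL11 itself had no probe of its own here, which left no check of the genotype labels on the targeted gene. None of the 5 genes was listed at 0 on any array.

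In prpl11, PRPS6 had the largest difference of the 5 genes, about 1.26-fold above WT, while PRPS10, PRPL5, PRPL17 and PRPL34 had estimates between 0.99-fold and 1.05-fold. With all arrays taken as independent, 0 of the 5 genes passed an adjusted p of 0.05 in limma, where 5.52% of the 3331 tested probes passed. At an unadjusted p under 0.05 the fit passed PRPS6 alone among the 5, against 16.2% of all probes. A block on the replicate number takes out what same-numbered arrays share. In that fit PRPS6 passed as higher in prpl11 and the other 4 genes did not pass. Of all tested probes 19.5% passed and 10.3% passed as higher in prpl11, so a call on PRPS6 alone is near the common share. The call was not kept once neighbouring arrays were averaged and the set was blocked (limma adjusted p = 0.0668). Nor did PRPS6 reach the threshold when genotype within set was a random block (limma adjusted p = 0.330). The median log2 change was 0.07 over the 5 genes and 0.01 over all tested probes.

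**Figure D1:**
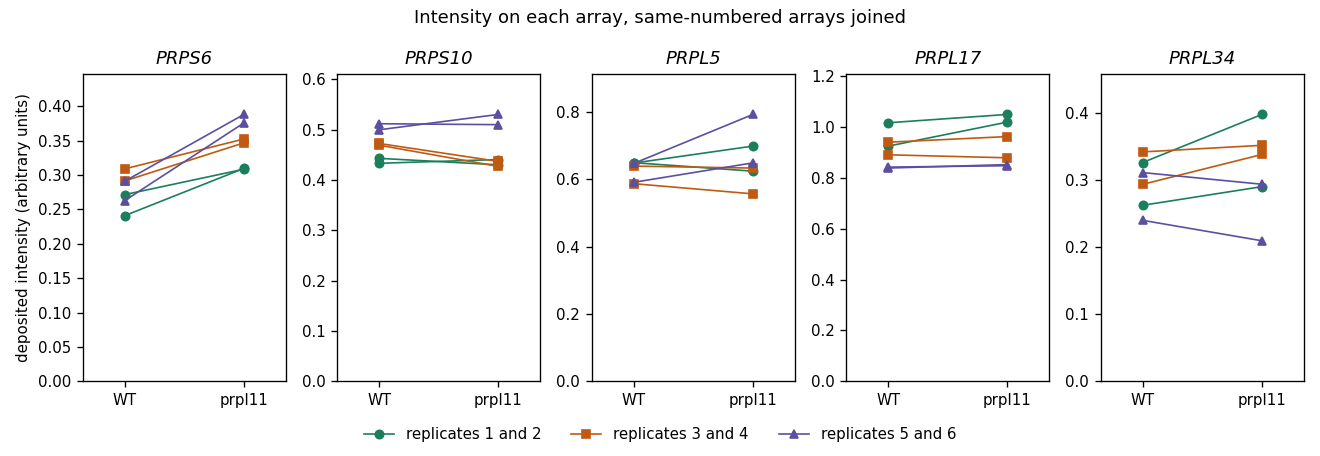
Deposited intensity (arbitrary units, axes from 0) of each gene on the 6 WT and 6 prpl11 arrays; each line joins the WT and prpl11 arrays of 1 replicate number, and colour and marker give the set. For PRPS6 all 6 lines rise, from a WT range of 0.241 to 0.309 to a prpl11 range of 0.309 to 0.388, while for the other 4 genes the ranges of the genotypes overlap broadly.

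PRPS6 encodes the counterpart of bacterial S6, a protein of the platform of the small subunit. In WT its intensity was 0.241 at the lowest, 0.281 at the median and 0.309 at the highest. In prpl11 the lowest was 0.309 (0.3085 before rounding), the median 0.350 and the highest 0.388. On deposited intensities 5 of 6 prpl11 arrays lay above the highest WT array, and prpl11 replicate 2 lay just below WT replicate 4. After normalization 4 of 6 lay above it, so the genotypes overlapped slightly on either scale. Complete separation of the genotypes on normalized values was seen for 4.80% of tested probes, PRPS6 not among them. The mean was 0.278 ± 0.024 in WT and 0.347 ± 0.033 in prpl11 (SD, n = 6 arrays each).

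On normalized log2 values the PRPS6 change was 0.33 ± 0.10 (SE), a 1.26-fold difference with a 95% interval of 1.08-fold to 1.46-fold. That interval, like those of the other 4 genes, takes all arrays as independent. With sign, so that decreases count as lower, the PRPS6 change was above the change of 97.7% of tested probes. By the limma p without a block PRPS6 ranked 242 among the 3331 tested probes. Without a block its limma adjusted p was 0.09, and with the replicate number as a block the same change had an SE of 0.055 and a limma adjusted p of 0.00487. PRPS6 was higher in prpl11 in all 6 same-numbered pairs, a property shared by 13.7% of tested probes. The changes within pairs 1 to 6 were 0.32, 0.12, 0.31, 0.25, 0.44 and 0.54 on the log2 scale. By set the mean change was 0.22 for replicates 1 and 2, 0.28 for replicates 3 and 4, and 0.49 for replicates 5 and 6. The size of the difference therefore varied over the sets while its sign did not.

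The level of PRPS6 also varied with the set. Neighbouring arrays of a genotype differed by a median of 0.05 on the log2 scale, and arrays of different sets by 0.25. When neighbours were averaged to 3 values per genotype, the limma adjusted p of PRPS6 was 0.746 without a set block. With one it was 0.0668, in a fit where 4.14% of probes and none of the 5 genes passed. The call in the blocked fit thus rests on counting neighbouring arrays as separate pairs. PRPS6 was dim: its WT intensities began close to 0.236, the 10th percentile of positive intensities on these arrays. With that value added to every intensity before the logarithm the PRPS6 change was 0.19 and the limma adjusted p 0.0891. Without a block PRPS6 passed under median centring (limma adjusted p = 0.0434) and without normalization (0.0271). It also passed without prpl11 replicate 1 (limma adjusted p = 0.0498), without prpl11 replicate 2 (0.0459) and without replicates 1 and 2 of both genotypes (0.0249).

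PRPS10 encodes the counterpart of bacterial S10, which in Escherichia coli also acts in transcription antitermination. Its WT intensities ran from 0.433 through a median of 0.471 to 0.512, and its prpl11 intensities from 0.427 through 0.439 to 0.530. The prpl11 intensities spread wider than the WT range on both sides, with 1 prpl11 array above it and 2 below. The log2 change was -0.02 ± 0.09 (SE, limma adjusted p = 0.945), with a 95% interval of 0.86-fold to 1.12-fold. PRPS10 was higher in prpl11 in 2 of 6 pairs, and those were pairs 5 and 6, at 0.02 and 0.11, while pairs 1 to 4 lay between -0.10 and -0.04. Leaving out 1 array turned the sign of this near-zero change in 4 of 12 cases.

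PRPL5 encodes the counterpart of bacterial L5, which holds the small ribosomal RNA of the large subunit in place. Its intensity in WT was 0.587 at the lowest, 0.643 at the median and 0.649 at the highest, and in prpl11 0.557, 0.641 and 0.793. The prpl11 arrays were more scattered than the WT arrays, with an SD of 0.080 against 0.030, and the highest was prpl11 replicate 5. The log2 change was 0.07 ± 0.07 (SE, limma adjusted p = 0.723), with a 95% interval of 0.94-fold to 1.17-fold. The changes in pairs 5 and 6 were 0.31 and 0.15, whereas pairs 1 to 4 lay between -0.11 and 0.06. Without replicates 5 and 6 of both genotypes PRPL5 had a change of -0.01 (limma adjusted p = 0.988).

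PRPL17 encodes the counterpart of bacterial L17, found near the exit of the tunnel through which the new protein leaves. Its WT intensities were 0.839, 0.908 and 1.02 at the lowest, median and highest, and its prpl11 intensities 0.848, 0.921 and 1.05. The log2 change was 0.06 ± 0.06 (SE, limma adjusted p = 0.743), with a 95% interval of 0.95-fold to 1.14-fold. Pair changes of PRPL17 were the tightest of the 5 genes, with an SD of 0.039 against 0.077 to 0.145 for the others, and lay between 0.02 and 0.12. On normalized values all 6 pairs were higher in prpl11, as for 13.7% of tested probes, but 5 of 6 on the deposited intensities and after median centring. With the replicate block the limma adjusted p of PRPL17 was 0.207.

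PRPL34 encodes the counterpart of bacterial L34, a small protein of the large subunit. In WT its intensity was 0.240, 0.303 and 0.342 at the lowest, median and highest, and in prpl11 0.210, 0.316 and 0.398. The prpl11 range enclosed the WT range. Like PRPS6, PRPL34 was dim: its lowest prpl11 array lay below 0.236, the 10th percentile of positive intensities. The log2 change was 0.08 ± 0.12 (SE, limma adjusted p = 0.820), and its 95% interval of 0.89-fold to 1.25-fold was the widest of those 4 genes. PRPL34 was higher in prpl11 in pairs 1 to 4, by 0.09 to 0.25, and lower in pairs 5 and 6, at -0.06 and -0.12. Its size depended on single arrays, from 0.02 without prpl11 replicate 1 to 0.15 without prpl11 replicate 6. Without a set it was 0.04 (replicates 1 and 2), 0.03 (replicates 3 and 4) or 0.16 (replicates 5 and 6), and PRPL34 passed in none of these fits.

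Neighbouring numbers were more alike than other arrays for PRPS6, PRPS10 and PRPL17, but not for PRPL5 and PRPL34. Neighbouring arrays were a median of 0.14 apart for PRPL5 on the log2 scale, and arrays of different sets 0.10. For PRPL34 these medians were 0.34 and 0.19. In all 6 neighbour pairs, 3 per genotype, the odd-numbered array of PRPL34 was the higher one, by 0.07 to 0.45 on normalized values, and so it was on deposited values. This pattern was looked for after the values were seen, and 6.75% of tested probes showed it with the odd-numbered array higher. The median difference of PRPL34 was larger than that of 99.0% of probes. PRPL17 went the other way, by less. Its odd-numbered array was higher in 0 of 6 neighbour pairs on normalized values (-0.119 to -0.007) and in 1 of 6 on deposited values. The labels do not say how odd and even numbers differ. The part of the odd and even difference in the wide interval of PRPL34 was not tested.

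**Figure D2:**
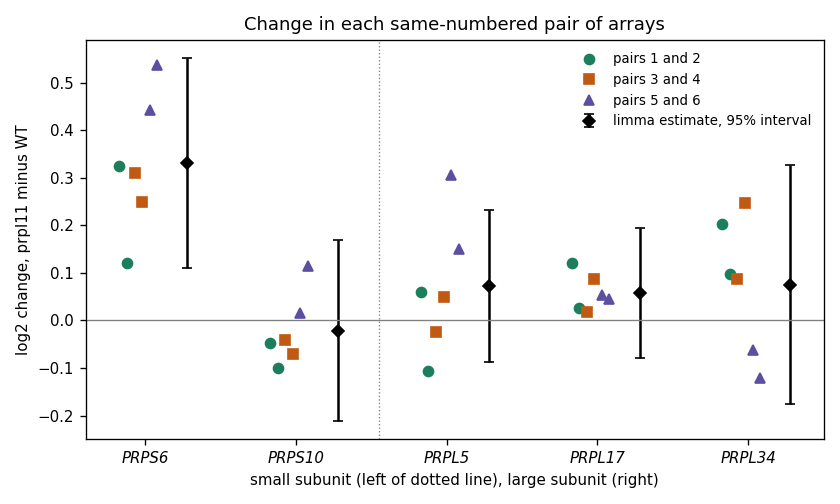
Log2 change, prpl11 minus WT, of each gene in the 6 same-numbered pairs of arrays (coloured markers by set) with the limma estimate over all 12 arrays and its 95% interval (black). PRPS6 pairs lie between 0.12 and 0.54, and the intervals of the other 4 genes span 0. All intervals take the arrays as independent.

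Pairs 5 and 6 stood apart from the rest for 4 of the genes. In them PRPS6, PRPS10 and PRPL5 had their largest differences towards prpl11, PRPL34 had its only negative ones, and PRPL17 stayed at 0.05 and 0.04. Whether this set differed in plant material or in hybridization is not given in the labels and was not tested.

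Small and large subunit genes were then set against each other by their changes, since intensities of different probes are not comparable. The mean log2 change was 0.15 for the 2 small subunit genes and 0.07 for the 3 large subunit genes, a difference of 0.09. Within pairs 1 to 6 the difference was 0.01, 0.00, 0.11, -0.04, 0.13 and 0.30, above 0 in 5 of 6 with an SD of 0.12. The difference was smaller than the SD of single pairs, which does not measure the precision of their mean. No p is given for the difference, because the 5 genes were chosen with earlier results known. Without prpl11 replicate 6 the difference was 0.00, and without replicates 5 and 6 of both genotypes it was 0.02.

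The small subunit value was carried by PRPS6. The changes of PRPS6 and PRPS10 were 0.35 apart, with PRPS6 above PRPS10 in 6 of 6 pairs by 0.22 to 0.43. PRPS6 exceeded the mean of the large subunit genes in 6 of 6 pairs, by 0.12 to 0.51, and PRPS10 exceeded it in 1 of 6. The 3 large subunit genes differed among themselves by 0.02 in their change over all arrays, but by 0.11 to 0.37 within single pairs. The 2 small subunit genes were farther apart in change, at 0.35, than the subunit means, at 0.09. These are unlike measures, since means over genes tend to vary less than single genes. No share over other pairs of probes is given for the gap of 0.35.

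**Figure D3:**
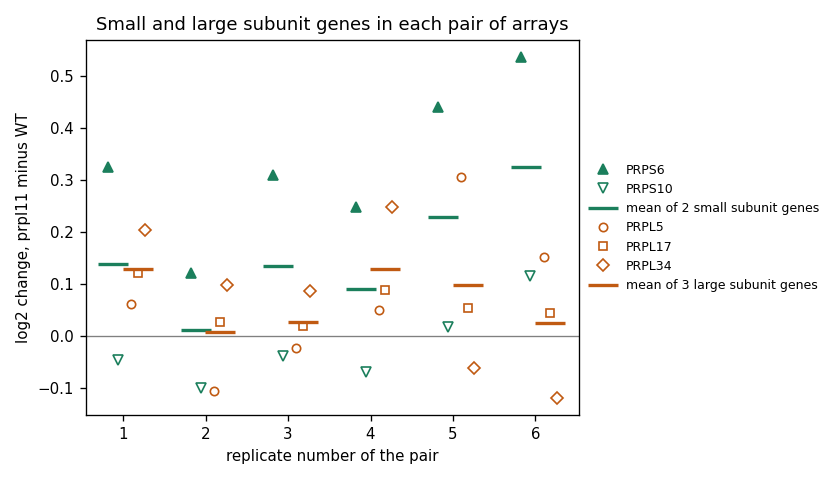
Log2 change, prpl11 minus WT, in each pair of arrays for the small subunit genes (green) and large subunit genes (orange), with a bar at the mean of each. PRPS6 lies above PRPS10 in all 6 pairs, and the bars of the subunits differ by -0.04 to 0.30.

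**Figure D4:**
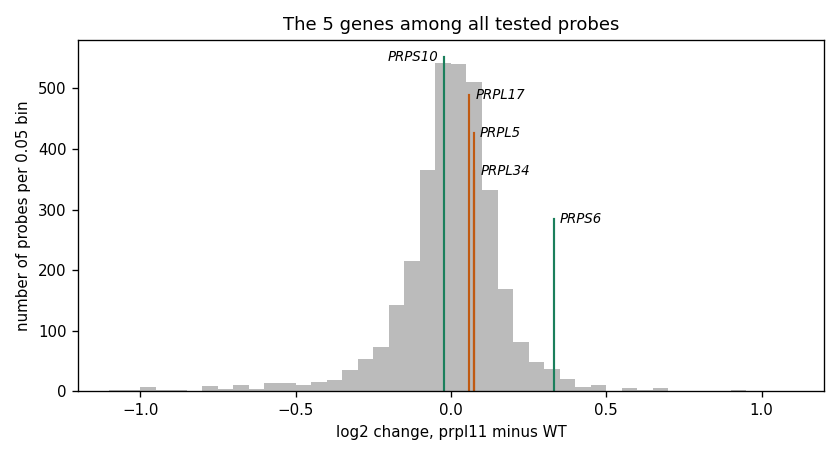
Histogram of the log2 change, prpl11 minus WT, of the 3331 tested probes in bins of 0.05, with the 5 genes marked; 9 probes lie beyond the axis limits of -1.2 and 1.2. PRPS6 at 0.33 lies in the upper tail, whereas PRPS10 at -0.02 and the large subunit genes at 0.06 to 0.08 lie in the bulk.

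Across arrays the genes of this ribosome did not share a common pattern. PRPS6 and PRPS10 had a Pearson r of 0.54 and a Spearman rho of 0.42 over the 12 arrays, an r reached by 12.5% of all pairs of single-gene probes above 0 on every array. After genotype means were removed their r was 0.83, reached by 2.11% of such pairs. In level over the 12 arrays PRPS10 and PRPL17 ran opposite ways, with a Pearson r of -0.88 and a Spearman rho of -0.91. PRPL17 was 26th from the bottom among the 652 genes set against PRPS10. PRPL5 and PRPL34 had an r of -0.02 with each other. For the changes within the 6 pairs, prpl11 minus WT, PRPS10 and PRPL17 had an r of only -0.13. There r was 0.95 for PRPS6 and PRPS10, 0.80 for PRPS6 and PRPL5, and 0.67 for PRPS10 and PRPL5. The changes of PRPL34 had an r of -0.72 with PRPS6, -0.82 with PRPS10 and -0.57 with PRPL5. No share over all pairs of probes is given for these r values of changes. These correlations are descriptions without a test, since arrays of a set share their deviations and are not independent points.

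The points lay in order of the sets. PRPS10 averaged -1.21, -1.14 and -0.95 in WT and -1.28, -1.19 and -0.89 in prpl11 for the sets of replicates 1 and 2, 3 and 4, and 5 and 6, on the normalized log2 scale. PRPL17 in the same order averaged -0.05, -0.14 and -0.25 in WT and 0.02, -0.08 and -0.20 in prpl11. In each genotype PRPS10 was thus highest, and PRPL17 lowest, in the set of replicates 5 and 6. For PRPL17 the span over sets within WT, from -0.05 to -0.25, was larger than the genotype difference of 0.06.

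**Figure D5:**
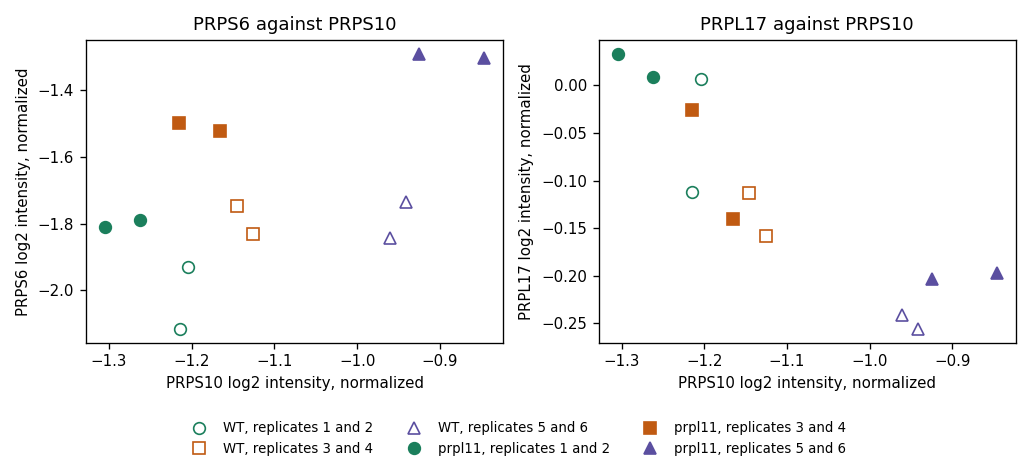
Normalized log2 intensity of PRPS6 (left) and PRPL17 (right) against PRPS10 on the 12 arrays; open markers are WT, filled markers prpl11, and colour and shape give the set. The 4 arrays of replicates 5 and 6 stand apart at the highest PRPS10 and lowest PRPL17 values, and at equal set the prpl11 arrays lie above the WT arrays in PRPS6.

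Genes with the most similar pattern were taken as the 3 with the highest Pearson r over the 12 arrays among 652 others with a probe of their own. For PRPS6 they were AT5G11550 (r = 0.90), AT2G19280 (r = 0.90) and AT2G34450 (r = 0.88), with log2 changes of 0.18, 0.12 and 0.20 that did not pass without a block. The r of AT2G19280 was 0.60 after median centring and 0.50 without normalization. For PRPS10 they were AT5G63390 (r = 0.94), AT1G04330 (r = 0.91) and AT3G54930 (r = 0.90), and for PRPL5 AT2G39000 (r = 0.82), AT3G09050 (r = 0.78) and AT3G44570 (r = 0.77). For PRPL17 they were AT1G02260 (r = 0.90), NTRC (r = 0.89), a thioredoxin reductase of the plastid, and HEMA3 (r = 0.88), of the glutamyl-tRNA reductase family of tetrapyrrole synthesis. For PRPL34 they were AT3G03890 (r = 0.80), AT5G50350 (r = 0.78) and AT4G09040 (r = 0.77). None of these 15 genes belonged to the lists of plastid gene expression used here, and 0 passed the limma threshold without a block. With the replicate block 3 of the 15 passed, where 19.5% of all tested probes did. These were AT2G19280 (limma adjusted p = 0.0183), AT2G34450 (0.0204) and AT3G44570 (0.0117), whose log2 change was 0.19.

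The probes covered little of the rest of this pathway. Of 41 nuclear genes listed for plastid ribosomal proteins, 6 had a probe of their own: the 5 above and PRPL29 (AT5G65220), a large subunit gene listed at 0 on all 12 arrays. None of 14 plastid translation factors or 21 genes of plastid transcription was matched to such a probe. Of the translation factors, 4 were listed only on probes shared with other genes. The 25 plastid-encoded ribosomal protein genes were absent from the gene table used to match identifiers. Whether the array carried probes for them is therefore not known. Of 18 genes for ribosome assembly and maturation of ribosomal RNA, 2 had one. RimM (AT5G46420), named after a bacterial maturation factor of the small subunit, was listed at 0 on 10 of 12 arrays. YbeY (AT2G25870), an endoribonuclease that matures plastid ribosomal RNA, had 2 probes with log2 changes of 0.04 ± 0.10 and 0.12 ± 0.08 (SE, limma adjusted p = 0.912 and 0.518). With the block the limma adjusted p values of these probes were 0.534 and 0.110. No ribosomal protein of cytosol or mitochondria could be found by its name in the gene table, so these ribosomes were not analysed here.

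The markers of tissue were as sparse. Of 20 genes of green tissue 1 had a probe of its own, LHB1B2, an antenna protein of photosystem II, with intensities of 17.0 to 21.3 in WT and 20.1 to 28.4 in prpl11. Its log2 change of 0.19 did not pass without the block (limma adjusted p = 0.332) and passed with it (limma adjusted p = 0.0473). On set averages with a set block it did not pass (limma adjusted p = 0.103). Quantile normalization left LHB1B2 only 7 distinct values on 12 arrays, and its change was 0.33 after median centring and 0.32 without normalization, neither of which passed. Close copies of this gene may share the probe. None of 6 root and senescence genes had one. Levels in bulk RNA cannot tell fewer cells of a type from less transcript per cell, and the part of tissue composition in the PRPS6 difference was not tested.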

How the data were processed

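Per the deposited table, each probe had 1 linear intensity on each array; how the authors corrected background and scaled arrays is not given in the sources. A floor of 0.0583, the 1st percentile of positive intensities, replaced zeros before log2 and quantile normalization. Leaving out 108 probes with no value above 0, 3331 were tested with limma 3.58.1 in R 4.3.3 (lmFit, eBayes, 10 residual and 2.92 prior degrees of freedom, no block), with Benjamini-Hochberg adjustment over all of them and a threshold of 0.05. Intensities and their SDs are as deposited; log2 changes are prpl11 minus WT after normalization. Probes were named from the platform's gene table: 692 listed 1 gene, 870 several and 1877 none. Genes were read only from the first kind. Normalization, the fits, the adjustment and the shares of tested probes used all 3 kinds, and 665 of the 3331 tested probes were of the first kind.

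Replicate numbers pair the arrays by the data: deviations from genotype means correlated at 0.288 to 0.514 in the 6 same-numbered pairs, each array correlating best with its own number in the other genotype. The blocked fit is given where it changes a call. Alternatives changed the normalization, low values, filter, variance model, weights, sets and single arrays, 26 in all. The fit was tested on simulated data with 3331 probes and noise drawn independently per array. There, without a block, it recovered 60% of changes of 0.3 on the log2 scale, and 4.05% of calls were false. Neighbouring arrays of the real data were correlated, so these shares need not hold for them. The number of arrays limits the precision. The named genes were the 5 members, the list genes read from a single-gene probe, and for each member the 3 genes of highest correlation. The members and lists were chosen with earlier results of these data known. Figures were drawn with matplotlib 3.10.9.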

Additional observations from a re-analysis of the deposited data

How the results depend on the processing

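Of 26 alternatives run for each gene, PRPL17 and PRPL34 kept their direction and stayed short of the threshold in all 26. PRPS6 kept its direction in all 26 and passed in 6. With the replicate block its limma adjusted p was 0.00487 at an unchanged 0.33. It passed with median centring at 0.331 and without normalization at 0.321 (limma adjusted p = 0.0434 and 0.0271). It also passed at 0.384 without replicates 1 and 2 of both genotypes, and among single omissions without prpl11 replicate 1 or 2. All 12 single omissions together gave PRPS6 changes of 0.281 to 0.385 and limma adjusted p of 0.0459 to 0.181, of which 2 passed. The highest adjusted p over all alternatives was 0.746, with set averages. PRPS10 ranged from -0.0759 to 0.0158 over single omissions and turned to 0.0053 without replicates 1 and 2 of both genotypes. PRPL5 turned to -0.00504 without replicates 5 and 6 of both genotypes. The difference of small and large subunit genes stayed above 0, between 0.00338 and 0.152. The first YbeY probe turned to -0.00532 with array weights, to -0.00756 without prpl11 replicate 5 and to -0.00414 without prpl11 replicate 6 (single omissions: -0.00756 to 0.0967). For LHB1B2 the limma adjusted p was 0.0473 with the replicate block and 0.103 on set averages with a set block. The block also brought AT2G19280, AT2G34450 and AT3G44570 past the threshold, and changed no other call among the 5 genes, YbeY and the 15 genes of similar pattern.

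Of all probes, 184 passed, against 649 with the replicate block, 23 with set averages, 72 when genotype within set was a random block, 114 without replicates 1 and 2 and 96 without replicates 3 and 4 of both genotypes. Single omissions gave 142 to 180. Without replicates 5 and 6 of both genotypes 192 passed, and on set averages with a set block 138. The cause of these differences was not tested.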
